A study of Mus musculus with 12 samples.

Results

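The genes of Polycomb repressive complex 2 (PRC2) were followed in mES cells in which BRG1, the main ATPase of the mSWI/SNF chromatin remodeler, was degraded to different extents. They are the 8 genes Ezh1, Ezh2, Eed, Suz12, Jarid2, Mtf2, Phf19 and Aebp2, chosen by name as core or accessory subunits, out of 24421 genes in the count table, and all 8 passed the filter on low values. Bulk RNA-seq of total RNA was done on 12 libraries, 2 for each of 6 conditions: dTAG13 at 0.3, 1, 3, 10 or 100 nM for 24 h, and a control without it (0 nM, with the vehicle DMSO). dTAG13 is a small molecule that sends a degron-tagged protein to the proteasome, and the study used it to ask how the cells respond to graded BRG1 levels. Every group, the control included, carried the genotype labelled Brg1 dTag knock in, on B6 cells derived from C57BL/6J blastocysts and kept in 2i+LIF, so no group had untagged BRG1. The knock-in line was raised from colonies of single cells and may be 1 clone. The sample labels do not say whether the libraries of a condition came from separate cultures, while the study's legends describe its expression data as from 2 independent experiments. The p-values measure the spread between these libraries, part of which may be technical.

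PRC2 methylates lysine on the tail of histone H3 and keeps developmental genes silent in embryonic stem cells. EZH2 or its paralog EZH1 carries the catalytic SET domain, EED binds the finished mark and stimulates the enzyme, and SUZ12 is the scaffold that holds the core together and receives the accessory proteins. These accessory proteins define alternative forms of the complex, one with a Polycomb-like protein (MTF2, PHF19 or PHF1) that binds CpG-rich DNA, and the other with JARID2 and AEBP2. Bulk RNA-seq reads transcript levels only, and fewer cells of a type cannot be told apart from less RNA per cell.

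Transcripts of Suz12, Jarid2 and Mtf2 rose as the dTAG13 dose was raised, by about the same modest amount, and stood at 127%, 129.5% and 124% of the control at 100 nM. No change was detected in Ezh2 or Eed, the enzyme and the reader of the same core, at any dose. Aebp2 passed a trend test downwards but no comparison with the control over the genes past the filter, and the trend call was lost in 9 of 22 alternatives, while Ezh1 and Phf19 had few counts and wide intervals. Outside the 8 genes, Epop, an accessory partner that joins the Polycomb-like form, rose more than any of them and did so from 1 nM.

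The promoters of the 3 genes that rose are shown because these genes moved together. They are the 250 bases before the gene start in RefSeq on GRCm38.p6, the same assembly as mm10, 5′ to 3′ along the gene. Capitals mark matches to the CCAAT box, the letters CCAAT or, on the other strand, ATTGG. The Suz12 window is chr11:79992856-79993105 on the plus strand, the Jarid2 window chr13:44730524-44730773 on the plus strand and the Mtf2 window chr5:108065424-108065673 on the plus strand.
Suz12: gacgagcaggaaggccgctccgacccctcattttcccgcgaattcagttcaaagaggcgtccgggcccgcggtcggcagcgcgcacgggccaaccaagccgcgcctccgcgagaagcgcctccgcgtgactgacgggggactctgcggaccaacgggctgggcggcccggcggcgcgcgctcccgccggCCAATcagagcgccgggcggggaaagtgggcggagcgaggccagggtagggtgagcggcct
Jarid2: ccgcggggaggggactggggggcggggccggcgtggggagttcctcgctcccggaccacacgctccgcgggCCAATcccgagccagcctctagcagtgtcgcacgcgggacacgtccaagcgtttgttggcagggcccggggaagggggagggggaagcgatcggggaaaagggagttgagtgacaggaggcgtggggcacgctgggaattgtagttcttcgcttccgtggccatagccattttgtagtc
Mtf2: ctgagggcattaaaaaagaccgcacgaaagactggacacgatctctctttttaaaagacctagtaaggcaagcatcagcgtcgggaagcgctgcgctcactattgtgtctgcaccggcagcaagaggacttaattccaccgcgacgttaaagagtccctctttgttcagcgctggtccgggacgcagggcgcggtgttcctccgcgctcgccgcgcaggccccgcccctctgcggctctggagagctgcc
All 3 windows were rich in CpG. The GC content was 73.6% for Suz12, 67.2% for Jarid2 and 59.2% for Mtf2, with 37, 23 and 23 CpG dinucleotides, against medians of 52.4% and 6 over 32851 RefSeq promoter windows of the same length. A CCAAT box was found once each in the shown windows of Suz12 and Jarid2 and not in that of Mtf2, and 33.8% of all windows hold one. Mtf2, Jarid2 and Aebp2 have further RefSeq windows away from the gene start, which are not shown. Among these, a window of Mtf2 and a window of Aebp2 each held 1 match. Of the other members at the gene start, Ezh2 held 3 matches within a window of 63.6% GC, and Ezh1, Eed, Phf19 and Aebp2 held none. Their CpG dinucleotides numbered 31 for Phf19 (75.2% GC), 23 for Ezh2, 14 for Ezh1, 12 for Eed and 1 for Aebp2. The other windows of Aebp2 held 14 and 3. CpG richness was therefore not particular to the genes that rose. The E-box CACGTG, present in 6.02% of all windows, was in none of the 8. A match is a description of the letters and not evidence that a factor binds there, and the letters do not separate the genes that rose from those that did not.

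The libraries held 4663484 to 6375582 counts, with a median of 5956669.5, and the first 3 nM library was the shallowest. The ribosomal transcript Rn45s took 10.5% to 19.4% of the counts. All 9 mES markers were above 1 RPKM (counts per kilobase of exon scaled to library size), with summed levels of 2229 to 2255 RPKM at 0 nM and 2079 to 2113 RPKM at 100 nM. None of 5 fibroblast and none of 5 primitive endoderm markers was above 1 RPKM, and 3 of 5 trophoblast, 2 of 5 neural and 1 of 4 mesoderm markers were, with Elf5, Neurog2 and Mesp1 at 3 counts or fewer in every library. The summed fibroblast, primitive endoderm, trophoblast, neural and mesoderm levels ran from 1.08 to 1.32, 1.73 to 2.11, 10.2 to 12.8, 34.7 to 38.2 and 5.39 to 7.73 RPKM in the control, and from 1.52 to 2.14, 2.18 to 2.31, 16.6 to 18.2, 63.6 to 65.2 and 8.43 to 9.89 RPKM at 100 nM. All 5 sums were therefore higher in both 100 nM libraries than in both 0 nM libraries, and their part in the results was not tested. Smarca4, the gene of BRG1 itself, had 63.9 ± 0.503 RPKM in the control and 71.3 ± 0.0942 RPKM with 100 nM (SD, n = 2), and passed the test upwards at 100 nM (log2 fold change 0.16, edgeR adjusted p = 0.0389).

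In the 0 nM libraries the 8 genes fell into a high and a low group (the plot of RPKM by dose). Levels per length at 0 nM were 92.7 ± 1.35 RPKM for Ezh2, 89.4 ± 3.06 for Eed, 72.5 ± 0.951 for Mtf2, 59.9 ± 0.578 for Suz12 and 58.4 ± 1.13 for Jarid2 (SD, n = 2). The low group was Aebp2 at 17.7 ± 1.20 RPKM, Ezh1 at 4.94 ± 0.177 and Phf19 at 1.21 ± 0.0173 (SD, n = 2). No neighbours in this order overlapped between libraries in the control, although Ezh2 and Eed, and Suz12 and Jarid2, lay close together. At 100 nM the order was kept, but Mtf2 (89.8 ± 0.726 RPKM) now overlapped Eed (90.4 ± 2.41 RPKM), and Jarid2 (75.6 ± 0.567 RPKM) overlapped Suz12 (76.2 ± 1.81 RPKM; SD, n = 2). Counts ran from 964 to 3013 per library for the 5 high genes, 668 to 929 for Aebp2, 114 to 173 for Ezh1 and 15 to 33 for Phf19. No exon of the 8 genes overlaps an exon of another gene in the annotation used.

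**Figure D1:**
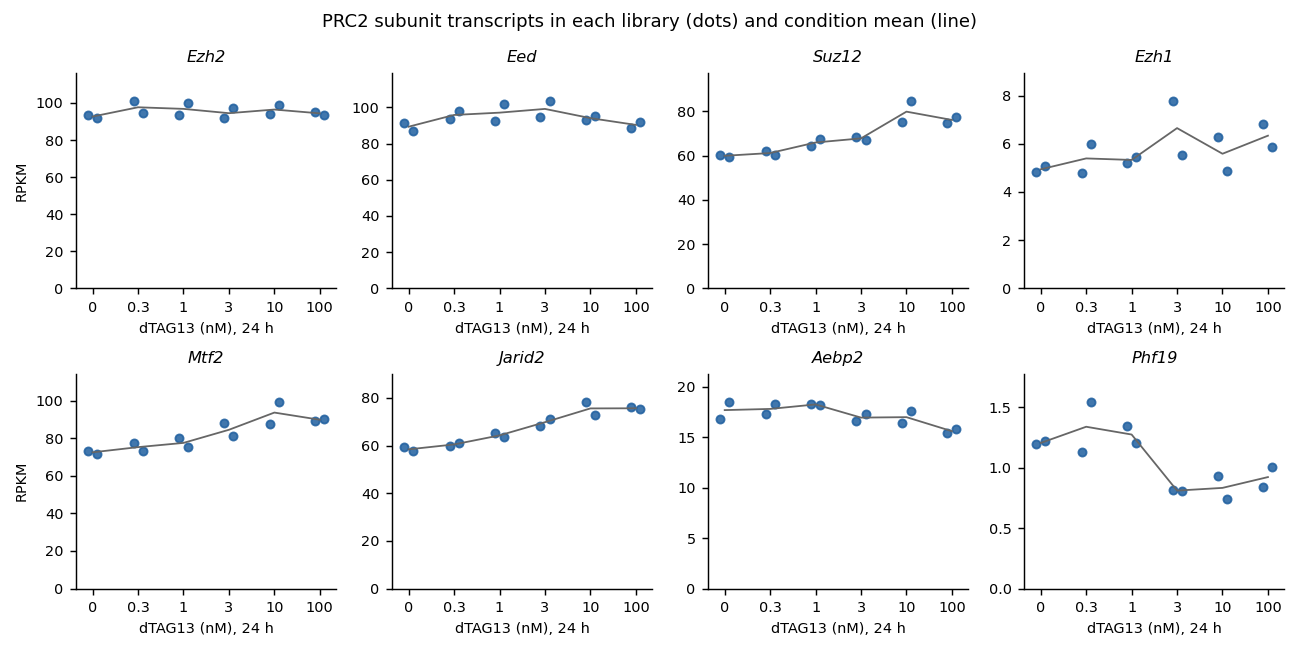
RPKM (vertical axes, from 0, each panel with its own scale) of the 8 PRC2 subunit genes at 0 to 100 nM dTAG13 (horizontal axes), with 1 dot per library and a line through the condition means. Suz12, Jarid2 and Mtf2 climb to 10 nM, Ezh2 and Eed stay between 87.2 and 103 RPKM, and Ezh1 and Phf19 scatter at low levels.

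Each dose was compared with 0 nM over 11378 genes, using edgeR's quasi-likelihood test in 1 fit of all libraries. Genes with a Benjamini-Hochberg adjusted p under 0.05 were counted as changed. All dose comparisons share the 2 control libraries and are not independent of each other. At 0.3 nM, 0 of the 8 genes were called in edgeR, 0 had an unadjusted p under 0.05, and of all tested genes 0% were called higher and 0.0703% lower. At 1 nM, 0 were called and 2 had an unadjusted p under 0.05 (Suz12 and Jarid2), with 0.773% of all genes called higher and 1.52% lower. At 3 nM, Jarid2 and Mtf2 were higher, 2 of 8 against 4.15% of all genes, and 5.25% of all genes were lower. At 10 nM Suz12, Jarid2 and Mtf2 were higher, 3 of 8 against 7.87% of all genes, and at 100 nM the same 3 were higher against 10.1% of all genes. No member was called lower at any dose, whereas 10.1% of all genes were lower with 10 nM and 13.3% with 100 nM. The median log2 fold change at 100 nM was 0.17 for the 8 genes and 0 for all genes tested. In a fit of the 23204 genes with at least 1 count, which includes genes under the filter, both medians were 0.09. That fit is on a different scale, since the median of 14 cell cycle genes was 0.001 in the filtered fit and -0.08 in it. The medians of the 2 fits are therefore not directly comparable. None of the 8 passed the test with a change over 1.5-fold. By that measure 3.01% of all genes were higher and 4.92% lower with 10 nM, and 4.37% were higher and 6.83% lower with 100 nM.

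**Figure D2:**
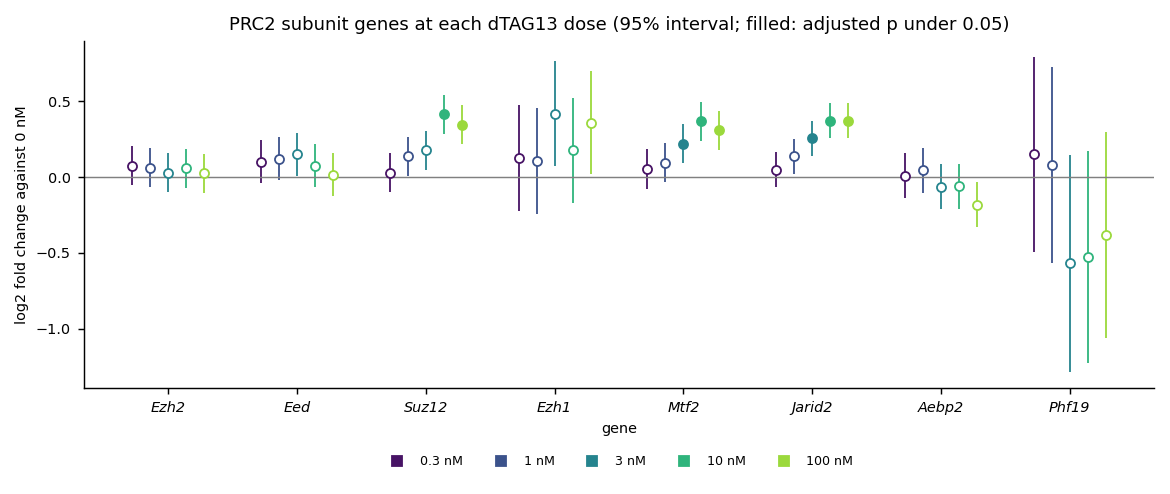
Log2 fold change against 0 nM (vertical axis) of each PRC2 subunit gene (horizontal axis) at the 5 dTAG13 doses (colors), with 95% intervals from the edgeR fit and filled points for an adjusted p under 0.05. The filled points are Suz12 at 10 and 100 nM and Mtf2 and Jarid2 at 3, 10 and 100 nM.

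Suz12, the scaffold gene, lies on chromosome 11 of mm10 from 79993106 to 80034123 on the plus strand. It had 60.3 and 59.5 RPKM in the control, 62.2 and 60.2 with 0.3 nM, 64.2 and 67.8 with 1 nM, 68.6 and 67.1 with 3 nM, 75.2 and 84.6 with 10 nM, and 74.9 and 77.5 at 100 nM. Both libraries lay above both controls at every dose from 1 nM, and the 10 and 100 nM libraries lay above all others. Its log2 fold change was 0.03 with 0.3 nM, 0.14 at 1 nM and 0.18 with 3 nM, with edgeR adjusted p = 0.968, 0.325 and 0.0788. It was 0.41 at 10 nM (standard error 0.062, edgeR adjusted p = 2.1e-05) and 0.35 at 100 nM (standard error 0.062, edgeR adjusted p = 0.000141). Leaving out the first or second 10 nM library gave edgeR adjusted p = 0.0441 and 0.0344 for Suz12 at 3 nM. With all libraries it passed the test at 10 and 100 nM, with a fold of 1.27 at 100 nM (95% interval 1.16 to 1.39). Between 3 and 10 nM its mean moved from 67.8 ± 1.08 to 79.9 ± 6.64 RPKM (SD, n = 2), and the libraries did not overlap.

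Ezh2, the catalytic subunit, lies on chromosome 6 from 47530274 to 47595030 on the minus strand. It had 93.6 and 91.7 RPKM in the control, 101 and 94.4 with 0.3 nM, 93.6 and 100.0 with 1 nM, 91.9 and 97.0 with 3 nM, 93.9 and 99.0 with 10 nM, and 95.3 and 93.5 at 100 nM. The libraries of 1, 3 and 100 nM overlapped the controls. Its log2 fold change at 100 nM was 0.03 (95% interval -0.10 to 0.15, edgeR adjusted p = 0.808), which leaves a fold between 0.932 and 1.11. Over the 6 conditions its slope was 0.001 per step (95% interval -0.020 to 0.023).

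Eed, the reader of the mark, lies on chromosome 7 from 89954654 to 89980976 on the minus strand. It had 91.5 and 87.2 RPKM in the control, 93.5 and 98.2 with 0.3 nM, 92.3 and 102 with 1 nM, 94.98 and 103 with 3 nM, 92.9 and 95.3 with 10 nM, and 88.7 and 92.1 at 100 nM. Libraries at 0.3 to 10 nM lay above both controls, and those at 100 nM overlapped them. The largest log2 fold change of Eed was 0.15 at 3 nM (edgeR adjusted p = 0.196), and at 100 nM it was 0.02 (95% interval -0.13 to 0.16, edgeR adjusted p = 0.904), so no change was detected.

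The scaffold transcript was also set against those of its partners within each library. The ratio of Suz12 to Ezh2 RPKM, chosen after the values were seen and therefore given as a description, was 0.645 and 0.649 in the control, 0.616 and 0.638 with 0.3 nM, 0.686 and 0.677 with 1 nM, and 0.746 and 0.691 at 3 nM. With 10 nM it was 0.802 and 0.854, and with 100 nM 0.786 and 0.829. The ratio of Suz12 to Eed moved from 0.671 ± 0.0165 at 0 nM to 0.849 ± 0.0557 at 10 nM and 0.843 ± 0.00236 at 100 nM (SD, n = 2). For both ratios the 10 and 100 nM libraries lay above all libraries of lower doses (the plot of transcript ratios). A ratio within a library does not depend on the normalization between libraries.

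**Figure D3:**
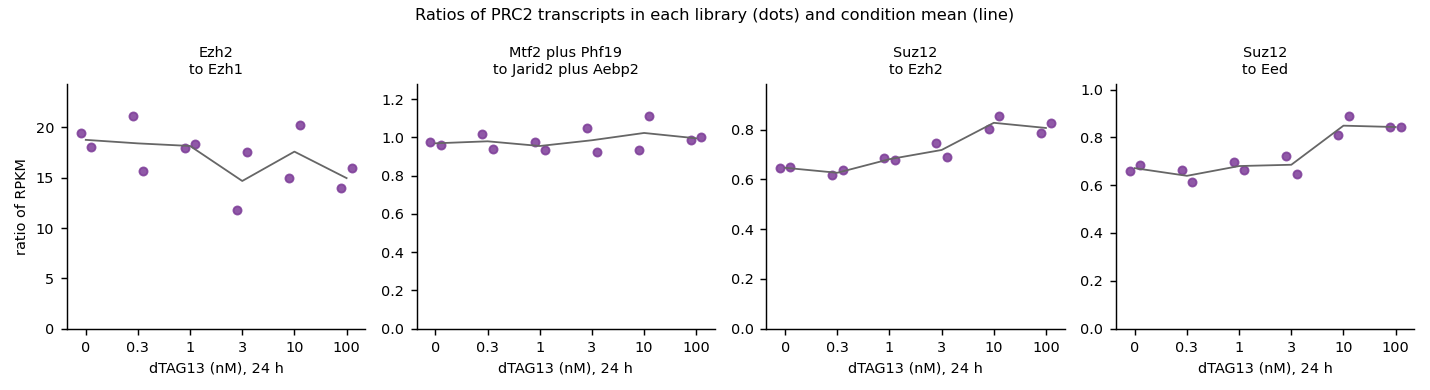
Ratios of RPKM (vertical axes, from 0) at 0 to 100 nM dTAG13 (horizontal axes), with 1 dot per library and a line through condition means, for Ezh2 to Ezh1, Mtf2 plus Phf19 to Jarid2 plus Aebp2, Suz12 to Ezh2, and Suz12 to Eed. The last 2 ratios step up between 3 and 10 nM, and the ratio of accessory genes stays between 0.923 and 1.11.

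Ezh1, the second catalytic gene, lies on chromosome 11 from 101191115 to 101226463 on the minus strand. Its levels were 4.82 and 5.07 RPKM in the control, 4.78 and 6.01 with 0.3 nM, 5.20 and 5.46 with 1 nM, 7.77 and 5.54 with 3 nM, 6.29 and 4.89 with 10 nM, and 6.81 and 5.87 at 100 nM. The 1, 3 and 100 nM libraries lay above both controls, while the first 10 nM library lay above both and the second between them. At 100 nM Ezh1 had a log2 fold change of 0.36 (95% interval 0.02 to 0.70, unadjusted p = 0.0396, edgeR adjusted p = 0.122), a point value as large as that of Suz12 but with a standard error of 0.16. At 3 nM it was 0.42 (edgeR adjusted p = 0.129), and without the second 3 nM library it was 0.65 (edgeR adjusted p = 0.0288). The ratio of Ezh2 to Ezh1 RPKM was 18.8 ± 0.947 at 0 nM and 14.96 ± 1.37 at 100 nM (SD, n = 2). The 0 nM libraries (19.4 and 18.1) did not overlap those of 100 nM (13.996 and 15.9). The ratio spread more widely within other conditions, with 21.1 and 15.7 for 0.3 nM and 11.8 and 17.5 for 3 nM.

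Among the accessory subunits, Jarid2 and Mtf2 belong to the alternative forms of PRC2 and rose together. Jarid2 lies on chromosome 13 from 44730774 to 44921643 on the plus strand. It had 59.2 and 57.6 RPKM in the control, 59.8 and 61.1 with 0.3 nM, 65.1 and 63.5 with 1 nM, 68.3 and 71.3 with 3 nM, 78.5 and 72.7 with 10 nM, and 76.0 and 75.2 at 100 nM. Both libraries of each dose lay above both controls, and each dose up to 10 nM lay above the one before it without overlap. The log2 fold change of Jarid2 was 0.05, 0.14, 0.26, 0.37 and 0.37 from 0.3 to 100 nM, and edgeR adjusted p-values were 0.914, 0.252, 0.00323, 2.05e-05 and 1.23e-05. The call at 3 nM was lost without the second 0 nM library (edgeR adjusted p = 0.0623). At 100 nM the fold was 1.295 (95% interval 1.20 to 1.40), with a standard error of 0.055 on the log2 scale.

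Mtf2, whose product binds unmethylated CpG-rich DNA, lies on chromosome 5 from 108065674 to 108109219 on the plus strand. It had 73.2 and 71.8 RPKM in the control, 77.4 and 73.1 with 0.3 nM, 80.0 and 75.1 with 1 nM, 88.1 and 81.0 with 3 nM, 87.8 and 99.5 with 10 nM, and 89.3 and 90.4 at 100 nM. From 1 nM both libraries lay above both controls, and the libraries of 3 and 10 nM overlapped each other. The log2 fold change of Mtf2 was 0.05 with 0.3 nM, 0.10 with 1 nM, 0.22 with 3 nM, 0.37 at 10 nM and 0.31 at 100 nM, and the standard error was 0.063 at each. The edgeR adjusted p was 0.0253 with 3 nM, 0.00011 at 10 nM and 0.000558 at 100 nM. The call at 3 nM was lost with the likelihood ratio test, without normalization factors and without the filter on low values (edgeR adjusted p = 0.0593, 0.0896 and 0.0541). It also rests on single libraries. It was lost without the first or second 0 nM library (log2 fold change 0.23 and 0.20). The same held without the first 3 nM library (0.16), which was the shallowest.

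Aebp2, the zinc finger partner of JARID2, lies on chromosome 6 from 140622663 to 140678472 on the plus strand. It had 16.8 and 18.5 RPKM in the control, 17.3 and 18.3 with 0.3 nM, 18.3 and 18.2 with 1 nM, 16.6 and 17.3 with 3 nM, 16.4 and 17.6 with 10 nM, and 15.4 and 15.8 at 100 nM. Only the 100 nM libraries lay apart from the controls, below both. At 100 nM Aebp2 had a log2 fold change of -0.18 (95% interval -0.33 to -0.03, edgeR adjusted p = 0.0717), and at the other doses it lay between -0.06 and 0.04.

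Phf19, a Polycomb-like gene, lies on chromosome 2 from 34893755 to 34913976 on the minus strand and was close to the detection limit. Its counts were 26 and 28 in the control, 24 and 33 with 0.3 nM, 30 and 27 with 1 nM, 15 and 17 with 3 nM, 21 and 16 with 10 nM, and 19 and 23 at 100 nM. All libraries from 3 nM lay below both controls in RPKM. Phf19 passed the filter, with a mean of 1.06 RPKM over all libraries, only through the conditions from 0 to 1 nM. Its means at 3, 10 and 100 nM were 0.811, 0.833 and 0.922 RPKM, under the minimum of 1 RPKM. The log2 fold change of Phf19 was -0.57 with 3 nM, -0.53 at 10 nM and -0.38 at 100 nM, with edgeR adjusted p = 0.368, 0.324 and 0.446. At 100 nM the 95% interval of the fold ran from 0.479 to 1.23, which includes no change. The ratio of Mtf2 plus Phf19 to Jarid2 plus Aebp2, a description at the transcript level, was 0.969 ± 0.0131 at 0 nM and 0.995 ± 0.0127 at 100 nM (SD, n = 2). It leaves out Phf1 and is mostly Mtf2 against Jarid2, so it does not give the balance of the alternative forms.

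A trend over the 6 conditions, taken in order with equal steps, used all 12 libraries for each gene. It was called for 3 of the 8 genes upwards and 1 downwards, against 14.9% and 17.3% of all tested genes. The log2 change per step was 0.084 for Suz12, 0.084 for Jarid2 and 0.075 for Mtf2, with edgeR adjusted p = 6.69e-07, 9.21e-08 and 4.2e-06. For Aebp2 it was -0.035 (standard error 0.012, edgeR adjusted p = 0.0313), a call lost in 9 of 22 alternatives. One of these was DESeq2's Wald test (adjusted p = 0.0918). Leaving out the second 0 nM, second 0.3 nM, first 10 nM, first 100 nM or second 100 nM library gave edgeR adjusted p = 0.211, 0.0732, 0.0587, 0.116 and 0.0713. The slopes of Ezh1 (0.065, edgeR adjusted p = 0.0808) and Phf19 (-0.13, edgeR adjusted p = 0.0759) did not pass. The slope of Ezh1 passed without the second library of 0.3 nM (0.0487), 3 nM (0.0341) or 10 nM (0.0338), as edgeR adjusted p.

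Doses were also contrasted with each other in the same fit. At 10 nM against 1 nM, a contrast added after the values were seen, Suz12, Jarid2 and Mtf2 were higher by 0.28, 0.23 and 0.27 on the log2 scale (edgeR adjusted p = 0.00582, 0.00929 and 0.0074), 3 of 8 against 2.55% of all genes (3.72% were lower). At 100 nM against 10 nM, added likewise, 0 of 8 were called in edgeR and 0 had an unadjusted p under 0.05, against 0.615% of all genes called higher and 1.76% lower. The log2 differences there were -0.07 for Suz12 (95% interval -0.20 to 0.06), 0.00 for Jarid2 (-0.11 to 0.11) and -0.06 for Mtf2 (-0.19 to 0.07). The library numbers in the labels put 0, 1, 10 and 100 nM in one run of numbers and 0.3 and 3 nM in another. At 3 nM against 0.3 nM, which stays within a run and does not use the 0 nM libraries, Jarid2 was higher by 0.21 (standard error 0.056, edgeR adjusted p = 0.0269), 1 of 8 against 2.43% of all genes (2.88% were lower). Suz12 and Mtf2 had 0.15 and 0.17 there (edgeR adjusted p = 0.193 and 0.135). The Jarid2 call did not survive leaving out the first or second 0.3 nM library or the second 3 nM library (edgeR adjusted p = 0.202, 0.108 and 0.185). Both the 10 nM against 1 nM contrast and the 100 nM against 0 nM contrast lie within the other run. The comparison of 3 nM with 0 nM and the steps between 3 and 10 nM cross the runs. Dose and any difference between the runs cannot be told apart there. In the 10 nM against 1 nM contrast edgeR called 1 to 3 members when a library was left out. Suz12 was lost without the first 1 nM library (0.12) or the second 10 nM library (0.131), Mtf2 without the second 1 nM (0.157) or second 10 nM library (0.165), and Jarid2 without the first 1 nM (0.0584), second 1 nM (0.128) or first 10 nM library (0.0843), as edgeR adjusted p.

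**Figure D4:**
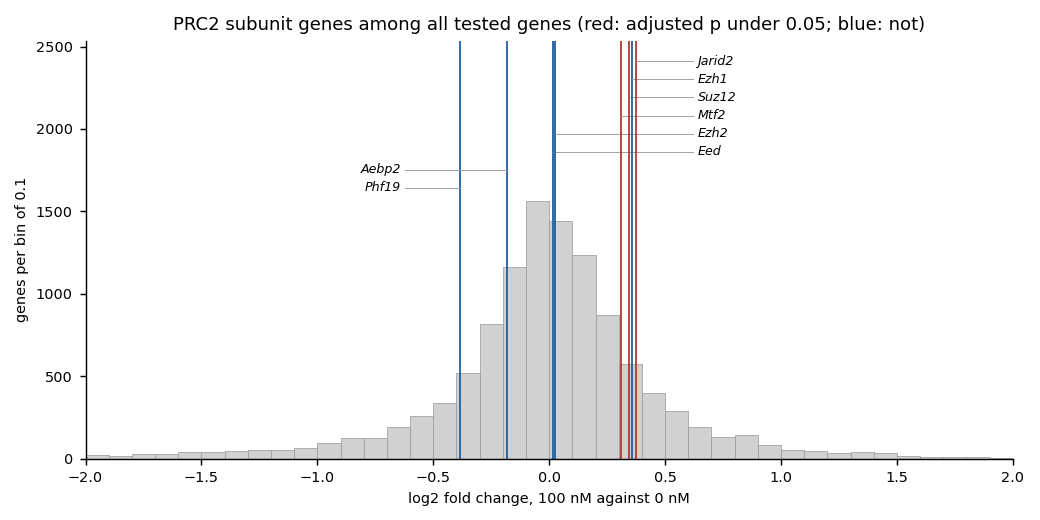
Number of tested genes (vertical axis) by log2 fold change at 100 nM against 0 nM in bins of 0.1 (horizontal axis, genes beyond 2 in either direction not drawn), with a line for each PRC2 subunit gene, red for an adjusted p under 0.05 and blue otherwise. Mtf2, Suz12 and Jarid2 stand at 0.31, 0.35 and 0.37, inside the body of the distribution, and Eed and Ezh2 near its middle.

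The other partners of PRC2 were a list of 7 genes, of which 6 passed the filter. Epop was the only one called at 100 nM, 1 of 6 against 10.1% of all genes. Epop, named E130012A19Rik in the count table, encodes a protein that joins PRC2 with MTF2 and links it to Elongin B and C. It lies on chromosome 11 from 97627387 to 97629716 on the minus strand and had the highest level per length of all the PRC2 genes examined. It had 227.6 and 249.9 RPKM in the control, 254 and 276 with 0.3 nM, 316 and 299 with 1 nM, 369 and 342 with 3 nM, 421 and 421 with 10 nM, and 451 and 447 at 100 nM. Both libraries lay above both controls at every dose and the conditions followed the dose without overlap. The log2 fold change of Epop was 0.15 with 0.3 nM (edgeR adjusted p = 0.543), 0.37 with 1 nM (0.000516), 0.57 with 3 nM (2.11e-07), 0.82 with 10 nM (1.45e-10) and 0.91 with 100 nM (6.9e-12), with a standard error of 0.058 throughout. It passed 1.5-fold at 10 and 100 nM and was 1.88 times the control at 100 nM (95% interval 1.73 to 2.04). This interval of Epop lay above those of all 8 members at 100 nM. The calls of Epop from 1 nM on were kept in all the alternatives, where its adjusted p at 1 nM was at most 0.0494.

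**Figure D5:**
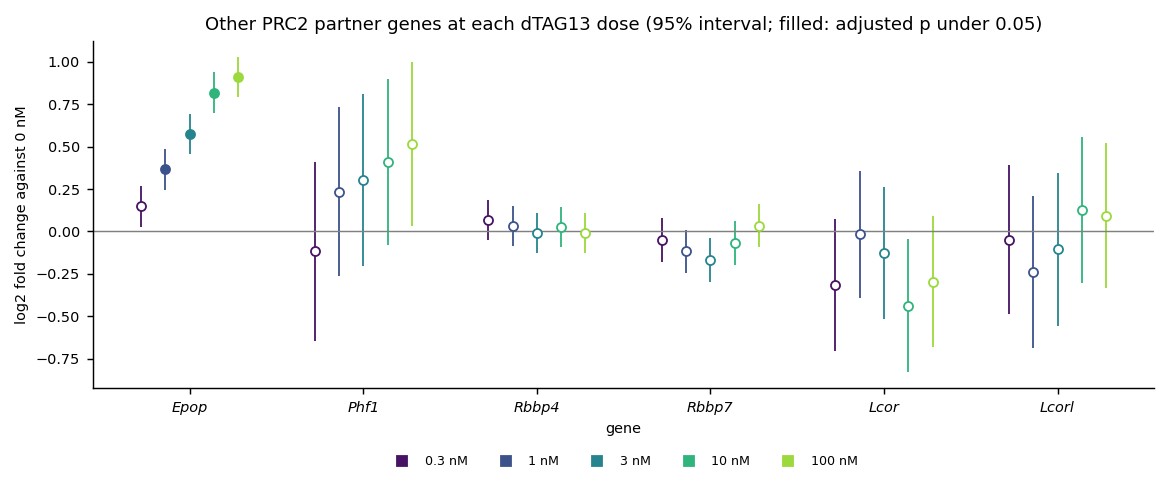
Log2 fold change against 0 nM (vertical axis) of 6 other PRC2 partner genes (horizontal axis) at the 5 dTAG13 doses (colors), with 95% intervals from the edgeR fit and filled points for an adjusted p under 0.05. Epop rises with each dose to 0.91, and no other gene has a filled point.

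Phf1, the third Polycomb-like gene, had 2.53 and 2.93 RPKM at 0 nM and 3.59 and 4.21 at 100 nM. Its log2 fold change at 100 nM was 0.51 (95% interval 0.03 to 1.00, edgeR adjusted p = 0.12). The slope of Phf1, 0.12 per step, passed the trend test (edgeR adjusted p = 0.023), as did 14.9% of all tested genes upwards. Phf1 had only 33 to 63 counts per library, and this call was not followed in the alternatives. The histone chaperone genes Rbbp4 and Rbbp7 had 115 ± 4.81 and 103 ± 0.778 RPKM at 0 nM and 114 ± 1.79 and 105 ± 2.89 RPKM at 100 nM (SD, n = 2). Their log2 fold changes at 100 nM were -0.01 (95% interval -0.13 to 0.11) and 0.03 (-0.09 to 0.16), so no change was detected. Exons of Rbbp4, Rbbp7 and Lcorl overlap those of Sync, Txlng and Ncapg on the other strand, and counting did not use the strand. Lcor and Lcorl, whose loci make the PALI partners, had log2 fold changes of -0.30 (95% interval -0.68 to 0.09) and 0.09 (-0.33 to 0.52) at 100 nM. Ezhip, an inhibitor of PRC2 named AU022751 in the table, lay under the filter with 6 to 14 counts per library. Its log2 fold change was 0.26 (edgeR adjusted p = 0.807) in the fit of the 23204 genes with at least 1 count.

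Of 9 enzymes that act against PRC2 on H3K27 or on its chromatin, 2 were higher and 1 lower at 100 nM, against 10.1% and 13.3% of all genes. None passed 1.5-fold, and the 3 are named because they are few, after their values were seen. Nsd2, an H3K36 methyltransferase gene listed as Whsc1, rose by 0.37 (standard error 0.076, edgeR adjusted p = 0.000763), from 9.97 and 10.3 to 12.8 and 13.3 RPKM. Kmt2c, an H3K4 methyltransferase gene, rose by 0.26 (standard error 0.071, edgeR adjusted p = 0.00778), from 10.9 and 10.6 to 12.6 and 13.2 RPKM, and this call was lost in the fit of all genes with a count. Crebbp, an H3K27 acetyltransferase gene, fell by 0.19 on the log2 scale (standard error 0.067, edgeR adjusted p = 0.0395), from 27.7 and 26.8 to 24.1 and 23.6 RPKM. The median of the 9 was 0.03.

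Developmental genes known as PRC2 targets in mES cells were mostly too low to test. Of 20 outside the Hox clusters, 5 passed the filter. In the fit of all genes with a count, 2 of the 20 were higher at 100 nM, Pax6 among them, and 0 were lower in edgeR, against 5.05% and 9.55% of its genes. Of the 20, 2 had 3 counts or fewer in every library. The list's median log2 fold change was 0.81 there and 0.19 over the 5 genes that passed the filter, against 0.09 and 0 for all genes of each fit, so the larger median rests on genes of low counts. Pax6, a regulator of eye and neural progenitors, had 1 and 2 counts in the control, 28 and 28 at 100 nM, and was higher in that fit (edgeR adjusted p = 4.47e-08). No fold is given for Pax6 because its control counts were under 3, and its exons overlap those of Elp4 on the other strand. Pax6 is also in the neural marker list whose summed level was higher at 100 nM, and the part of neural cells in its level was not tested.

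Of 14 cell cycle genes, followed because PRC2 core genes are targets of E2F factors, 0 were called at 100 nM in edgeR, with the background of 10.1% higher and 13.3% lower given above, and their median log2 fold change was 0.00 (range -0.12 to 0.24). In the fit of all genes with a count, 2 were lower against 9.55% of its genes, Top2a and Ccnb1, named after their values were seen, with log2 fold changes of -0.18 and -0.21 (edgeR adjusted p = 0.00724 and 0.039). Log2 fold changes in that fit run lower than in the filtered fit, by 0.08 for Suz12.

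The tested genes whose log2 RPKM followed that of Ezh2 most closely over the 12 libraries were Chordc1, Cnot4 and Stard10 (Pearson r = 0.898, 0.888 and 0.842). For Jarid2, the called member with the largest change at 100 nM, they were Phc1, Oat and Aspscr1 (0.979, 0.979 and 0.9749). These values are descriptions over libraries that share the dose series and their normalization. For both genes the highest r among all tested genes were taken, so a high r follows in part from the choice. No change with dose was detected in Ezh2 itself. Phc1, a subunit of the other Polycomb complex, had a log2 fold change of 0.36 at 100 nM, Oat had 0.55 and Aspscr1 had 0.45. Phc1, Oat and Aspscr1 were picked for following Jarid2, itself picked for its change at 100 nM, over the same libraries. Their rise at 100 nM therefore follows from the choice and is not separate evidence, so no test is given for it.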

How the data were processed

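RNA-seq of 12 libraries of mES cells at 6 dTAG13 doses was used. The deposited values are raw counts of read pairs for each gene symbol, as the authors made them, with no normalization or filter. Per the labels and the study's methods, reads were trimmed with Trim Galore, aligned to mm10 with HISAT2 and counted on exons with featureCounts 2.0.1, requiring both ends to align. Multi-mapped pairs were not counted, which can lower counts of near-identical genes, and although the kit is stranded the strand was not used, so antisense reads add to a gene.

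Conditions came from the sample labels. The 11378 genes whose mean over all libraries reached 1 RPKM were tested in R 4.3.3 with edgeR 4.0.16, using TMM factors (0.947 to 1.06) and the quasi-likelihood test with Benjamini-Hochberg adjustment at 0.05, in 1 fit of the 6 conditions (biological coefficient of variation 6.20%). The study's methods name edgeR, the RPKM filter and a 1.5-fold minimum and use the likelihood ratio test, here an alternative. TMM assumes that most genes did not change and cannot show a change shared by all of them. Printed RPKM use the effective library sizes of that fit and the gene lengths deposited with the counts. Genes under the filter were tested in a fit of the 23204 genes with at least 1 count. Alternatives covered DESeq2 1.42.0, other factors and filters, fewer libraries in the fit, a replicate block and each library left out. The steps were checked on simulated counts.

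Named genes were the 8 members, the 7 other partners, members of the other lists past 1.5-fold at 100 nM, and the 3 genes most like Ezh2 and the called member most changed at 100 nM, by Pearson r of log2(RPKM + 0.1). A few others, named after their values were seen, are marked so in the text, beside Smarca4, the targeted gene. The results of 1 gene among the developmental targets are not reported here. Members, lists and tests were chosen with earlier results of these data known. RefSeq promoter windows were matched by symbol for all 8 members. Counts carry no molecular identifiers. Replicate numbers did not pair the libraries: over 15 pairs of conditions, deviations of libraries with the same number correlated with r from -0.095 to 0.093.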

Additional observations from a re-analysis of the deposited data

How the results depend on the processing

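Suz12, Jarid2 and Mtf2 kept their calls at 10 and 100 nM in all 23 alternatives run for each, except that none passed once a 1.5-fold minimum was added, which left 0 members at 3, 10 and 100 nM, at 3 nM against 0.3 nM and at 10 nM against 1 nM. At 3 nM the number called, 2, became 1 with the likelihood ratio test, without normalization factors or without the filter on low values, and 0 to 3 when 1 library was left out. At 3 nM against 0.3 nM, the number called, 1, became 0 with the likelihood ratio test, without normalization factors, without the filter and in a pairwise fit, and 0 to 1 when 1 library was left out. At 10 nM against 1 nM it was 1 to 3 when 1 library was left out. At 100 nM the fall of Aebp2 passed only without the filter (-0.26, edgeR adjusted p = 0.0107). The log2 change of the ratio of Mtf2 plus Phf19 to Jarid2 plus Aebp2 was 0.038 by RPKM and 0.068 by counts. The replicate block changed no call of a member: 2 at 3 nM, 3 at 10 nM, 3 at 100 nM and 4 for the trend, as without it. No result changed direction past a test. The cause of these changes was not tested. With 15 to 33 counts per library, Phf19 could not be resolved at this depth.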
